A study of Mus musculus with 12 samples.

Results

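The comparison described here set mice lacking the alpha7 nicotinic acetylcholine receptor (alpha7-nAChR KO, below KO) against wild-type (WT) mice after inhalation of nicotine vapor, in RNA from the thoracic aorta. It used 6 of the 12 libraries in the series: the raw count columns of KO nicotine libraries 3, 4 and 5 and of WT nicotine libraries 6, 11 and 12. Of the 27933 genes in the count table, 14621 had enough counts to be tested. The other 6 libraries, 3 from KO and 3 from WT mice kept in room air, served to show whether a genotype difference was also there without nicotine. All animals were labelled C57BL/6J and 8 months old. Exposure to vapor or air began at 5 months of age and lasted 12 weeks. The aortas had been cleaned of fat and frozen, and total RNA was amplified with a low-input SMART-Seq kit. The labels do not say which part of the receptor gene was removed, or whether each library is a separate mouse, so the p-values below measure only the spread between libraries. The meaning of the library numbers is not given either, and they separate the genotypes completely in this comparison, so anything that follows the number cannot be told apart from genotype.

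Alpha7 is a nicotine-gated, calcium-permeable cation channel made of identical subunits. It is found on neurons and also on macrophages, endothelial cells and smooth muscle, and on macrophages it is best known for restraining the release of inflammatory cytokines when acetylcholine or nicotine binds. The wall of the aorta is made of contractile smooth muscle, an endothelial lining and an adventitia of fibroblasts, nerves and resident leukocytes, with white and brown fat around it. Immediate early genes, named repeatedly below, encode transcription factors and feedback inhibitors that cells switch on within minutes of calcium entry, growth factors or stretch, and heat shock genes encode chaperones induced when proteins unfold.

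The targeted gene was barely measured. Chrna7 had 9, 18 and 26 reads in WT nicotine libraries 6, 11 and 12 and 25, 8 and 21 reads in KO nicotine libraries 3, 4 and 5. Scaled to the library total (CPM), the groups overlapped, with a log2 fold change, always KO over WT, of 0.07 ± 0.47 (standard error, SE). Counts over the whole gene can come from parts that a deletion leaves in place, so they check nothing about the genotype, and KO and WT below mean the libraries with those labels. Of the 16 nicotinic subunit genes listed, 5 were tested. Chrnb2, the usual partner of alpha4, was at 2.95, 3.44 and 1.96 CPM in the WT libraries (in the order 6, 11 and 12, as in all that follows) and at 1.10, 1.43 and 1.62 CPM in the KO libraries (in the order 3, 4 and 5). Its groups did not overlap, but the log2 fold change of -1.0 ± 0.47 did not pass the test (adjusted p = 0.60, edgeR). The muscle-type subunits Chrnb1 (0.38 ± 0.23) and Chrna1 (-0.63 ± 0.57) and the neuronal Chrna2 (0.997 ± 0.80) overlapped between the genotypes.

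Each nicotine library held between 10240031 and 12535127 counts, and mitochondrial genes took between 3.95% and 7.25% of them. The smooth muscle markers stood at aortic levels in all 6, with Acta2 between 6891 and 12250 CPM and Myh11 between 10270 and 17000 CPM, and log2 fold changes of -0.00 ± 0.24 and -0.11 ± 0.24. The Y-linked gene Ddx3y had at least 1178 reads and Xist at most 4 in every nicotine library. KO library 3 stood apart by its liver genes. The summed level of 29 hepatocyte markers was 5626 CPM there, against 295 to 619 CPM in the WT libraries and 200.3 CPM in the lowest KO library. The defining marker Alb was at 30.7, 14.3 and 92.4 CPM in WT and at 1815, 213 and 35.5 CPM in KO, so the groups overlapped. Skeletal muscle markers were also highest in KO library 3 (691 CPM summed over the list, against 102 to 427 CPM in WT). Adipocyte markers spread more widely in KO (4968 to 13160 CPM summed) than in WT (7478 to 8911 CPM), and Adipoq was at -0.13 ± 0.57. The part of these tissues in the results below was not tested beyond the fits given in the closing section. In bulk RNA, fewer cells of a type and less RNA per cell cannot be told apart.

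Across all tested genes, 1 was called at a Benjamini-Hochberg adjusted p under 0.05 in edgeR's quasi-likelihood test, 0.00684% of them, and it was lower in KO. None was called higher. DESeq2 on the same 12 libraries called 74 genes, 61 lower and 13 higher in KO, with Rcan1 among them. Without adjustment, 1220 genes (8.34%) had p under 0.05, where 731 would be the number if no gene differed, and they divided into 593 lower (4.06%) and 627 higher in KO (4.29%). In air the same genotype contrast called 0 genes in edgeR and 13 in DESeq2, and had 637 (4.36%) at unadjusted p under 0.05. A further 9 genes under nicotine had adjusted p between 0.05 and 0.10 and all 9 were lower in KO. The typical SE of a log2 fold change was 0.22 (the median over genes).

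**Figure D1:**
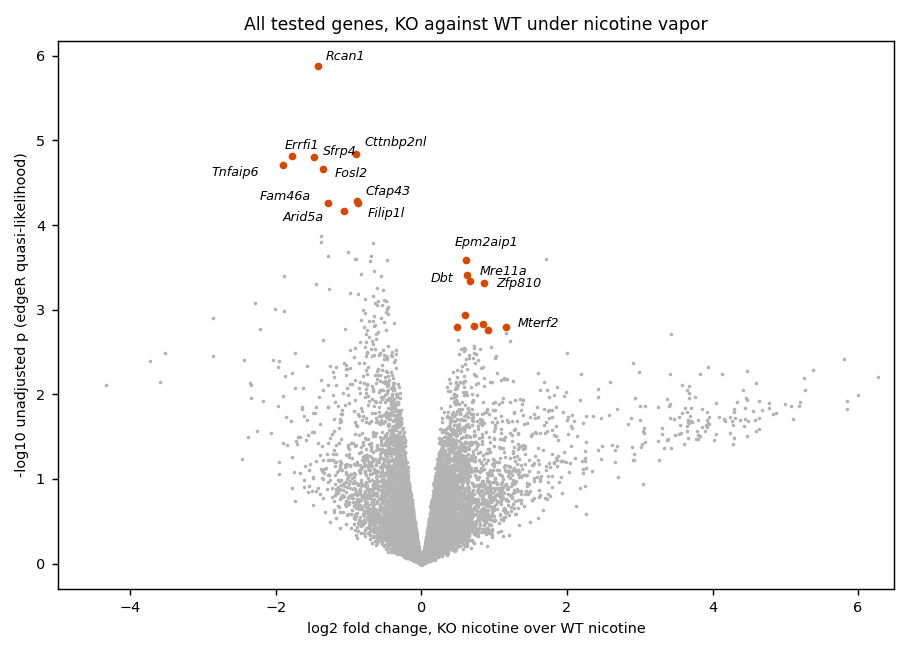
Every tested gene is a point, with the log2 fold change of KO over WT under nicotine on the horizontal axis and -log10 of the unadjusted edgeR p on the vertical axis. Orange points are the genes with the lowest p among those with no overlap between the genotypes, 10 in each direction. Rcan1, at -1.42, lies above all others, and the spray of points to the far right holds liver genes, whose level was highest in KO library 3.

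The called gene was Rcan1, the regulator of calcineurin, which binds and restrains the calcium-activated phosphatase that drives NFAT transcription factors and is itself a target of NFAT. It stood at 55.3, 78.8 and 75.0 CPM in the WT libraries and at 30.8, 23.2 and 24.4 CPM in the KO libraries. Every KO value lay below every WT value. The group means were 69.7 ± 12.6 and 26.1 ± 4.09 CPM (SD, n = 3 each), a 2.67-fold lower level in KO with a log2 fold change of -1.42 ± 0.17 (adjusted p = 0.0191, edgeR). In air, the means were 28.7 CPM in WT and 24.1 CPM in KO, a log2 fold change of -0.25 ± 0.17, so the KO libraries with nicotine sat beside both air groups and the WT nicotine libraries stood alone. The call rests on few libraries. Without WT nicotine library 11 the adjusted p was 0.0947, without KO nicotine library 4 it was 0.210 and without KO nicotine library 5 it was 0.0848, with log2 fold changes of -1.33, -1.34 and -1.38. It was also lost when only the 6 nicotine libraries entered the fit (adjusted p = 0.067, -1.41) and with the hepatocyte level of each library as a covariate (0.0973, -1.50).

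Of the 10 calcineurin and NFAT genes listed, Rcan1 was the sole member at unadjusted p under 0.05. The transcription factor Nfatc1 was at 80.2, 68.6 and 86.7 CPM in WT and 80.3, 74.6 and 63.7 CPM in KO. The list as a whole had 6 members above 0 and 4 below, and its median log2 fold change was 0.01, the same as that of all tested genes.

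The 9 genes that followed Rcan1 did not pass the threshold, and are described by their values. They include an inhibitor of growth factor signalling, a component of the AP-1 transcription factor and secreted matrix and Wnt modulators. Errfi1, the feedback inhibitor that binds the kinase domain of the EGF receptor, was at 507, 391 and 275 CPM in WT and at 153, 96.2 and 93.2 CPM in KO, a log2 fold change of -1.78 ± 0.26 (adjusted p = 0.0537, edgeR). Fosl2, the Fra-2 subunit of AP-1, was at 354, 394 and 350 CPM in WT and at 138, 130 and 163 CPM in KO (-1.35 ± 0.21, adjusted p = 0.0537). Cttnbp2nl, a cortactin-binding protein of the striatin phosphatase complex, was at 159, 161 and 162 CPM in WT and 87.1, 74.9 and 95.0 CPM in KO (-0.91 ± 0.14, adjusted p = 0.0537). The WT values of this gene lay within 3 CPM of each other.

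For the secreted members, as for the other genes that followed Rcan1, no overlap between the genotypes was part of the naming rule. Every KO library lay below every WT library for 5.59% of all tested genes. Sfrp4, a soluble frizzled-related protein that sequesters Wnt ligands, was at 206, 152 and 259 CPM in WT and at 87.6, 54.5 and 78.2 CPM in KO (-1.48 ± 0.22, adjusted p = 0.0537, edgeR). Tnfaip6, which links hyaluronan to heavy chains in inflamed matrix, was at 12.6, 13.5 and 10.5 CPM in WT and at 3.85, 2.29 and 3.64 CPM in KO (-1.90 ± 0.30, adjusted p = 0.0537), and this gene was also at -1.08 ± 0.30 in air. The other 4 were Cfap43, a protein of motile cilia (-0.89 ± 0.15), Filip1l, a filamin-interacting protein (-0.87 ± 0.15), Fam46a, a poly(A) polymerase (-1.28 ± 0.22), and Arid5a, an RNA-binding protein known to stabilise Il6 mRNA (-1.07 ± 0.19). Their adjusted p lay between 0.0896 and 0.0988. Arid5a ran from 87.7 to 145 CPM in WT and from 49.2 to 57.9 CPM in KO, and Filip1l from 790 to 1072 CPM in WT and from 448 to 598 CPM in KO.

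**Figure D2:**
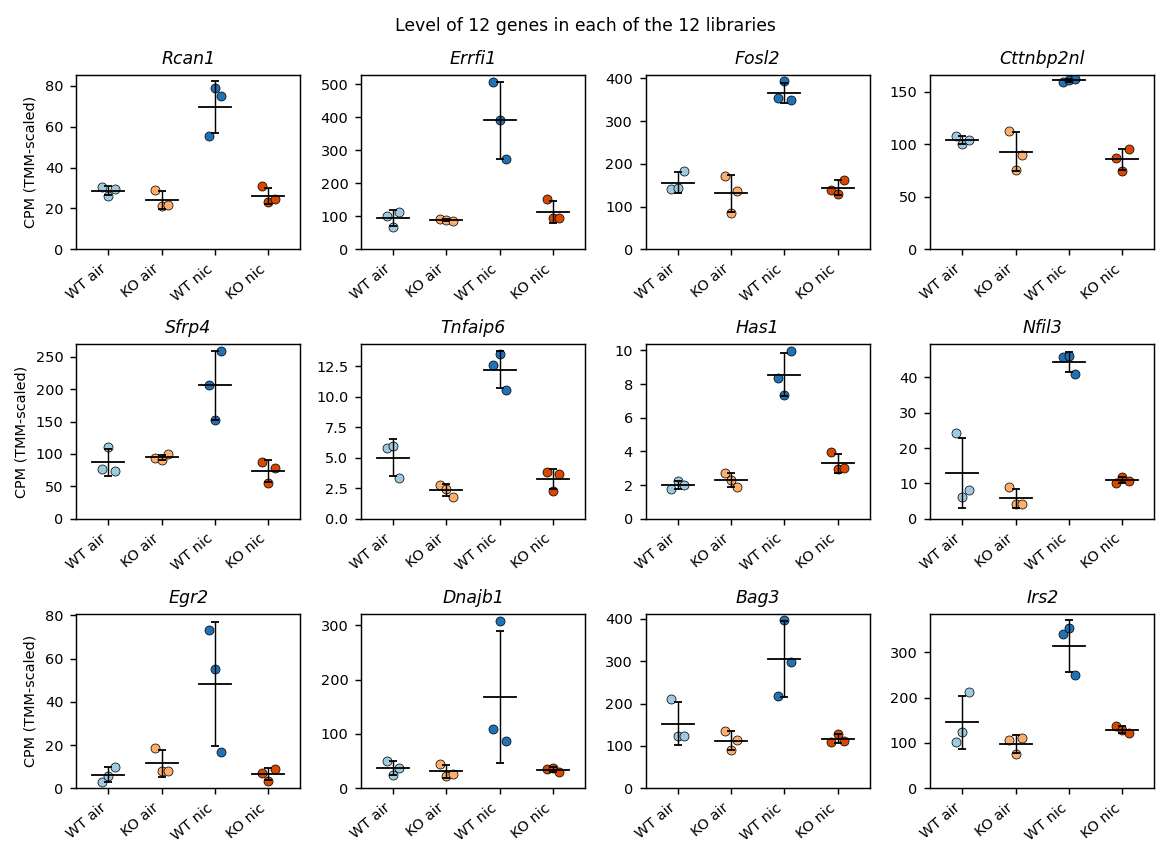
The level of 12 genes in CPM (TMM-scaled) in each library of the 4 groups, with points for libraries, a line for the group mean and bars for the SD (n = 3). In each panel the 3 WT nicotine libraries lie above the 3 KO nicotine libraries, as for Rcan1 with 55.3 to 78.8 CPM against 23.2 to 30.8 CPM. For Errfi1, Fosl2, Cttnbp2nl, Sfrp4 and Tnfaip6 this separation was part of the rule by which they were named.

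For several of these genes the KO nicotine level was close to that in both air groups. Errfi1 averaged 94.1 CPM in WT air and 88.2 CPM in KO air, Fosl2 156 and 131 CPM, and Sfrp4 87.0 and 94.8 CPM. Each of these air means lies at or near the KO nicotine values given above and below every WT nicotine value. Others differed from this. KO nicotine lay below every WT air library for Filip1l (WT air from 627 to 708 CPM) and Cfap43 (12.6 to 16.1 CPM against 18.7 to 22 CPM), and the WT air mean of Tnfaip6 was 5.02 CPM. Has1, a plasma membrane hyaluronan synthase, showed the pattern of Errfi1 at a lower level, with 8.36, 7.38 and 9.96 CPM in WT nicotine, 3.94, 2.96 and 3.0 CPM in KO nicotine, and air means of 1.99 CPM in WT and 2.31 CPM in KO (-1.38 ± 0.27 under nicotine, adjusted p = 0.176, edgeR).

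The upstream sequences of some of these genes carry short motifs of signal-dependent transcription factors. They are shown for the called gene and for Errfi1, Has1 and Egr2, from RefSeq promoters of the mouse build GRCm38.p6, which is not the mm9 build of the counts. Letters in capitals are motif matches, searched on both strands in the 250 bases before each start. In Rcan1 the NFAT core GGAAA, the cyclic AMP response element TGACGTCA and the AP-1 site TGANTCA were marked. In Errfi1 and Has1 only the cyclic AMP response element was marked, and in Egr2 only the CArG box. An NFAT core that overlaps the CArG box of the first Egr2 stretch is therefore not marked as such. The Rcan1 stretch (chr16:92400172-92400315, minus strand) lies before the inner of the 2 listed starts, and the counts do not tell which start the reads came from. Errfi1 is at chr4:150855004-150855041 (plus strand), Has1 at chr17:17855249-17855286 (minus strand) and the Egr2 stretches at chr10:67537479-67537518 and chr10:67537782-67537821 (plus strand). Another listed start of Errfi1 and another of Egr2 held none of these motifs. Of the genes that followed Rcan1, Fosl2, Cttnbp2nl and Cfap43 held none at any listed start. Tnfaip6, Filip1l and Arid5a held matches that are not printed.
Rcan1: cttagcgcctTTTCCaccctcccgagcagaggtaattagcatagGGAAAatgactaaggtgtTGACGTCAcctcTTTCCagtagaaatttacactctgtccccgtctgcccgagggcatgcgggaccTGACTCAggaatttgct
Errfi1: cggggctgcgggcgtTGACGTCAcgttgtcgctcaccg
Has1: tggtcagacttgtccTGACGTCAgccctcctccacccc
Egr2: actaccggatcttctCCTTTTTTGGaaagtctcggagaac
Egr2: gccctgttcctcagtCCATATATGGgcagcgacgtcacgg
Rcan1 holds 3 NFAT cores, 1 cyclic AMP response element and 1 AP-1 site in this window, and 6.39% of all 32851 promoters hold at least as many NFAT cores. Of the 100 genes with the lowest p among those lower in KO, 68 had a promoter in the table, and 8 of these (11.8%) held the cyclic AMP response element. The same motif was in 2.92% of the 10866 tested genes with a promoter, in 1 of 71 (1.41%) of the 100 lowest-p genes higher in KO, and in 1.55% of all promoters. The AP-1 site was in 11.8% of the lower genes, 7.04% of the higher genes and 5.95% of tested genes (6.75% of all promoters). The CArG box was in 3 lower genes (4.41%), Egr2, Filip1l and Lima1, in 1.41% of the higher genes and in 1.49% of tested genes (1.47% of all promoters). The NFAT core was in 64.7% of the lower, 54.9% of the higher and 58.7% of tested genes (55.6% of all promoters). These are matches of letters and not measured binding, and their excess was not tested.

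The immediate early genes lay below WT as a list. All 28 tested members had a negative log2 fold change, against 47.7% of all tested genes, with a median of -0.74 against 0.01 for all tested genes. At unadjusted p under 0.05, 9 of the 28 were lower (4.06% of all tested genes) and 0 higher (4.29%). For 10 members every KO library lay below every WT library, which held for 5.59% of all tested genes. Egr2, a zinc finger factor downstream of serum response factor, was at 73.2, 55.1 and 16.9 CPM in WT and at 7.33, 3.34 and 9.06 CPM in KO (-2.87 ± 0.64). Klf6, a Krüppel-like factor, was at 328, 396 and 282 CPM in WT and at 203, 208 and 237 CPM in KO (-0.63 ± 0.15), and Myc was at 17.8, 19.4 and 15.4 against 8.52, 11.7 and 6.39 CPM (-0.99 ± 0.27). None of these 3 was called, and their adjusted p in edgeR lay between 0.291 and 0.413.

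The immediate early list was not uniform. Fos itself, picked here after its values were seen, was at 491, 356 and 119 CPM in WT and at 207, 142 and 587 CPM in KO, so the single highest library was KO library 5. Egr1, picked in the same way, overlapped too (1102, 1251 and 534 CPM in WT, 356, 225 and 605 CPM in KO). The mean log2 CPM of the list was 6.88, 7.01 and 6.34 in the WT libraries and 5.90, 5.61 and 6.32 in the KO libraries. KO library 5 thus lay just below WT library 12. The air libraries ran from 5.24 to 6.5 in WT and from 5.49 to 6.39 in KO. In air the list had 15 members above 0 (50.2% of all tested genes) and 13 below, and a median of 0.08, and the median difference between the exposures was -0.74.

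Heat shock genes showed the same direction with more members past an unadjusted p of 0.05. All 20 tested members were below 0 (47.7% of all tested genes), 13 of them at unadjusted p under 0.05 (4.06% of all tested genes), and the median was -0.85. Bag3, the co-chaperone of HSP70 that clears damaged filamin in stretched muscle, was at 219, 397 and 298 CPM in WT and at 110, 129 and 113 CPM in KO (-1.38 ± 0.25, adjusted p = 0.176, edgeR). Dnajb4, an HSP40 family member, was at 562, 759 and 613 CPM in WT and at 210, 235 and 266 CPM in KO (-1.45 ± 0.30). Dnajb1, the main inducible HSP40, was at 109, 307 and 87.8 CPM against 35.8, 37.9 and 29.7 CPM (-2.29 ± 0.48), and the small heat shock protein Hspb8 was at 102, 137 and 187 against 94.2, 84.7 and 87.0 CPM (-0.68 ± 0.18). All 4, the members of lowest p in the list, had no overlap between the genotypes. Every KO library lay below every WT library for 9 of the 20 members and for 5.59% of all tested genes.

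The inducible HSP70 genes, added after their values were seen, had larger differences with wide spread. Hspa1a was at 164, 446 and 210 CPM in WT and at 17.4, 31.7 and 22.3 CPM in KO (-3.52 ± 0.89), and Hspa1b was at 468, 1378 and 776 CPM in WT and at 70.9, 85.7 and 41.4 CPM in KO (-3.73 ± 0.98). The copies are nearly identical, so the division of reads between them is uncertain. Unlike the immediate early genes, the heat shock list was on the same side in air, with 20 of 20 members below 0 (49.8% of all tested genes), 10 of them at unadjusted p under 0.05 (2.12% of all tested genes in that contrast) and a median of -0.64. In the test of whether the genotype contrast under nicotine differs from that in air, 2 of the 20 members were more negative under nicotine at unadjusted p under 0.05 (2.58% of all tested genes). Without WT library 12 the median under nicotine was -0.55. The mean log2 CPM of the list was 7.64, 8.44 and 8.55 in WT nicotine and 7.32, 7.0 and 6.82 in KO nicotine, between 7.14 and 8.11 in WT air and between 6.66 and 7.04 in KO air. A strict heat shock element (3 alternating GAA and TTC blocks) was found in the 250 bases before 2 of the 22 starts of the 16 members with a promoter (9.09%, against 0.466% of all promoters). These starts belong to Hspe1 and Hspd1, whose windows overlap on opposite strands.

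**Figure D3:**
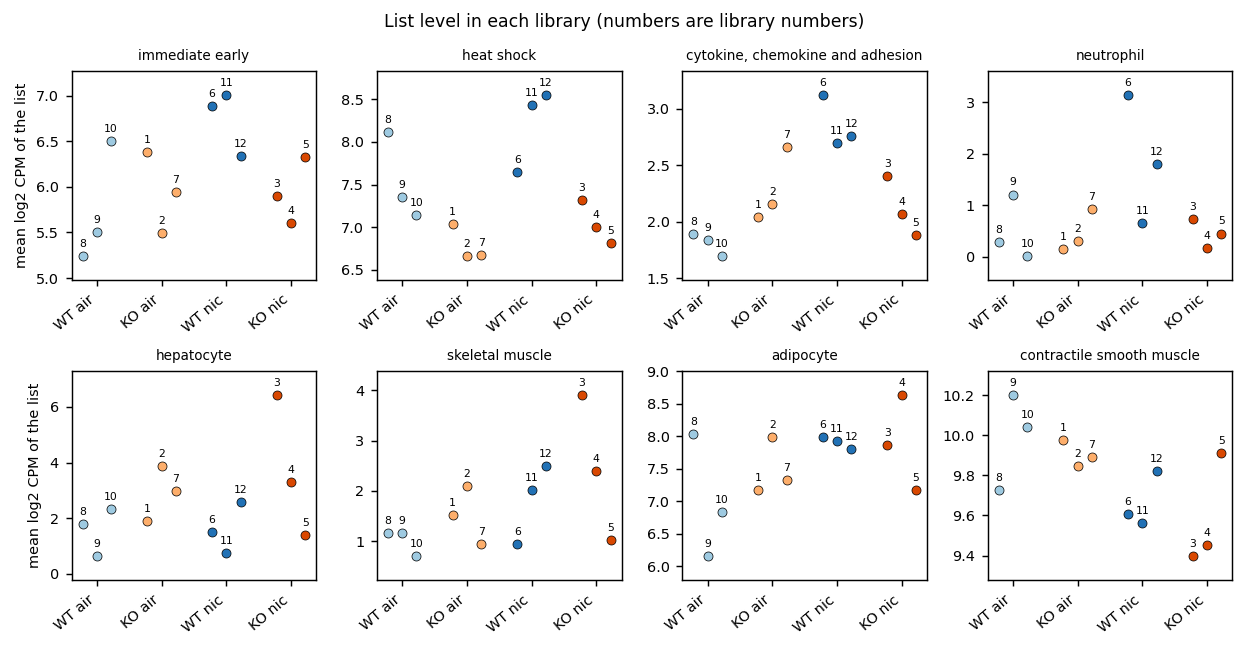
Mean log2 CPM of 8 gene lists in each library, by group, with the library number over each point. Immediate early and heat shock genes lie at 6.34 to 7.01 and 7.64 to 8.55 in the WT nicotine libraries, the lowest of each below a WT air library (WT air 10 at 6.5 and WT air 8 at 8.11), and hepatocyte and skeletal muscle genes are high in KO library 3.

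Of 17 tested glucocorticoid-responsive genes, 12 were below 0 (47.7% of all tested genes) and 6 were lower at unadjusted p under 0.05 (4.06%), with a median of -0.49 that was -0.28 without WT library 12 and -0.32 without KO library 5. Besides Errfi1 these included Cebpb, a leucine zipper factor of acute-phase and fat cell genes (-0.78 ± 0.26), Sgk1, a kinase that regulates sodium channels (-0.67 ± 0.27), and Per1, a repressor of the circadian clock (-0.57 ± 0.20). Per1 was at 227, 250 and 237 CPM in WT and at 149, 180 and 151 CPM in KO. The list's median in air was -0.22, and Errfi1 and Per1 are each counted in another list here too.

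The 19 clock genes lay on both sides of 0, with 8 above and 11 below and a median of -0.06. At unadjusted p under 0.05, 4 were lower in KO (4.06% of all tested genes) and 0 higher (4.29%). Nfil3, a repressor that opposes the D-box activators, was at 45.8, 46.0 and 40.9 CPM in WT and at 10.2, 11.8 and 10.8 CPM in KO (-2.02 ± 0.45, adjusted p = 0.305, edgeR), with a log2 fold change of -1.15 ± 0.47 in air. Bhlhe40, which represses CLOCK-driven genes, was at 162, 154 and 133 CPM in WT and at 114, 84.6 and 75.8 CPM in KO (-0.71 ± 0.15). Rora, a nuclear receptor that activates Bmal1, was at -0.40 ± 0.14. The labels give no hour of collection, and the other 15 clock genes had unadjusted p above 0.05.

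Growth factor lists were mixed, with single members well below 0. Of 13 tested genes of the EGF receptor axis, 5 were above and 8 below 0, 3 were lower at unadjusted p under 0.05 (4.06% of all tested genes) and 0 higher (4.29%), and the median was -0.20, or -0.11 without WT library 11. Besides Errfi1 the lower members were Spry4 at 42.4, 43.1 and 40.6 CPM in WT and 29.0, 22 and 21.6 CPM in KO (-0.79 ± 0.20) and Spry2 at 38.7, 43.1 and 45.3 against 22.4, 26.4 and 26.0 CPM (-0.76 ± 0.25), both Sprouty proteins that damp receptor tyrosine kinase signalling. The insulin and IGF list of 13 genes had 3 above and 10 below 0 and a median of -0.17. At unadjusted p under 0.05, 2 were lower (4.06% of all tested genes) and 0 higher (4.29%). Of these the insulin receptor substrate Irs2 was at 339, 353 and 249 against 137, 128 and 123 CPM (-1.28 ± 0.25), and Igfbp6, which binds IGF-II, was at 122, 107 and 112 against 78.8, 47.6 and 56.4 CPM (-0.90 ± 0.18). Both had adjusted p = 0.176 in edgeR. They were the 2 of 13 members for which every KO library lay below every WT library (5.59% of all tested genes). Among 26 tested BMP and TGF-beta genes, 8 were above and 18 below 0 (median -0.11). At unadjusted p under 0.05, 5 were lower (4.06% of all tested genes) and 0 higher (4.29%). The lower ones included Ctgf, a matricellular target of TGF-beta and YAP (3805, 3534 and 3625 CPM in WT, 2188, 1609 and 2015 CPM in KO, -0.92 ± 0.25), and Bmp2 (-1.06 ± 0.30).

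Most cytokine, chemokine and adhesion genes had lower values in KO under nicotine and leaned the other way in air. Of 22 tested, 18 were below 0 (47.7% of all tested genes) and 8 were lower at unadjusted p under 0.05 (4.06%), with 0 higher, and the median was -0.60, or -1.12 without KO library 3. In air 16 were above 0 and 4 were higher at unadjusted p under 0.05 (2.24% of all tested genes), with a median of 0.44. The difference between the exposures had 8 members below 0 at unadjusted p under 0.05 (2.58% of all tested genes) and a median of -0.73, but no gene of the list was called in that test. Sele, the E-selectin of activated endothelium, was at 4.82, 9.73 and 3.76 CPM in WT and at 2.29, 1.33 and 2.51 CPM in KO (-1.57 ± 0.46), and at 1.22 ± 0.47 in air. Il6 had 42, 16 and 6 reads in WT and 0, 0 and 3 reads in KO, too few for a fold. The monocyte chemokine Ccl7 was at 3.05, 2.26 and 5.31 against 1.01, 0.954 and 0.324 CPM (-2.22 ± 0.57), and Icam1, the leukocyte adhesion molecule, at 58.1, 47.5 and 64.8 against 49.0, 30.5 and 31.1 CPM (-0.62 ± 0.21).

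NF-kappaB subunits and feedback genes had 14 of 16 members below 0 (47.7% of all tested genes) and a median of -0.40. Nfkbia, the inhibitor that NF-kappaB induces, was at 95.4, 69.0 and 82.8 CPM in WT and 59.6, 55.1 and 48.8 CPM in KO (-0.60 ± 0.14), and the subunit Rela was at 94.8, 85.6 and 93.7 against 58.8, 73.9 and 74.1 CPM (-0.41 ± 0.14). Tnip1, which helps A20 to limit the pathway, lay on the other side at 33.0, 36.8 and 37.0 against 40.9, 47.7 and 50.9 CPM (0.38 ± 0.12). In all, 6 members were lower and 1 higher at unadjusted p under 0.05 (4.06% and 4.29% of all tested genes), and none was called.

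Leukocyte markers lay on different sides of 0 by cell type. All 9 tested neutrophil genes were below 0 (47.7% of all tested genes), 4 at unadjusted p under 0.05 (4.06%), with a median of -1.96. S100a9, a subunit of calprotectin, was at 29.2, 4.11 and 12.0 CPM in WT and 4.03, 1.72 and 3.0 CPM in KO (-2.36 ± 0.72), and the receptor Cxcr2 at 6.20, 0.671 and 2.53 against 0.183, 0.763 and 0.324 CPM, with overlap. WT library 6 carried most of this signal. Its summed neutrophil level was 97.6 CPM, against 22.3 CPM in the lowest WT library and 14.7 to 21.0 CPM in KO, and without it the list's median was -0.78. Of 20 macrophage genes 18 were below 0 and 3 were lower at unadjusted p under 0.05 (median -0.35, and -0.16 without WT library 6), among them Lyve1 (-0.74 ± 0.24), Fcgr3 (-0.63 ± 0.24) and the growth factor receptor Csf1r at 93.5, 77.0 and 65.0 against 61.9, 58.2 and 53.1 CPM (-0.44 ± 0.19). In air the macrophage median was 0.48, with 6 of 20 higher at unadjusted p under 0.05 (2.24% of all tested genes). Under nicotine, B cell and plasma cell genes had 10 of 11 below 0 (median -0.49) and T cell genes 7 of 10 (median -0.13), none at unadjusted p under 0.05. Mast cell genes had 6 of 7 above 0 (median 0.38), but 0 were higher (4.29% of all tested genes) and 1 lower (4.06%) at unadjusted p under 0.05. Their summed level was 79.2 CPM in KO library 4, 42.2 and 35.6 CPM in KO libraries 3 and 5, and 38.9 to 50.5 CPM in WT.

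Class II antigen presentation genes, with 7 of 8 below 0 and a median of -0.49 under nicotine, had none at unadjusted p under 0.05. That median was -0.24 without WT library 6, -0.25 without KO library 5, -0.74 without WT library 12 and -0.82 without KO library 4. In air all 8 were above 0 (50.2% of all tested genes), 6 of them at unadjusted p under 0.05 (2.24%), with a median of 1.03. Red cell genes, which come with blood left in the vessel, were below 0 for all 8 tested (median -0.96), and Hba-a1 was at 3200, 1924 and 790 CPM in WT and 1137, 808 and 1209 CPM in KO, so WT library 12 lay below all 3 KO libraries and the groups overlapped. Without WT library 6 the red cell median was -0.28.

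Most genes of the extracellular matrix had slightly lower values in KO. Of 19 fibrillar and associated collagens, 18 were below 0 (47.7% of all tested genes), with 3 lower at unadjusted p under 0.05 (4.06%). Their median of -0.28 was -0.19 without WT library 6 and -0.42 without WT library 11. Col14a1, which sits on collagen fibrils, was at 754, 656 and 649 CPM in WT and at 453, 419 and 471 CPM in KO (-0.62 ± 0.14), and Col12a1, of the same class, was at 90.3, 79.0 and 83.4 against 55.2, 66.3 and 52.9 CPM (-0.53 ± 0.12). The major fibrillar gene Col1a1, picked after its values were seen, overlapped, since KO library 5 was at 1894 CPM while KO libraries 3 and 4 were at 1157 and 1145 CPM and WT ran from 1466 to 2288 CPM (-0.37 ± 0.25). Among 17 elastic fibre genes, 16 were below 0 and 4 were lower at unadjusted p under 0.05. Their median of -0.20 was -0.098 without KO library 4 and -0.41 without KO library 5. Among them were Loxl2, a collagen and elastin crosslinking enzyme at 54.1, 41.2 and 46.8 against 19.8, 28.9 and 32.3 CPM (-0.81 ± 0.19), and Efemp1, a fibulin, at 63.5, 60.9 and 53.5 against 46.4, 43.4 and 36.9 CPM (-0.49 ± 0.15).

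Matrix proteases and their inhibitors had 19 of 24 members below 0 (47.7% of all tested genes) and 5 lower at unadjusted p under 0.05 (4.06%). Their median of -0.28 was -0.17 without KO library 4 and -0.48 without KO library 5. Adamts1, a versican-cleaving protease, was at 517, 706 and 823 against 391, 371 and 384 CPM (-0.84 ± 0.21) and at -0.67 ± 0.21 in air. All 12 fibroblast markers were also below 0 (median -0.30, and 0.08 in air). The fibroblast list itself holds matrix genes, Col1a1 and Col3a1 among them, so it is not separate from the matrix lists. The part of fibroblast content in the matrix genes was not tested.

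**Figure D4:**
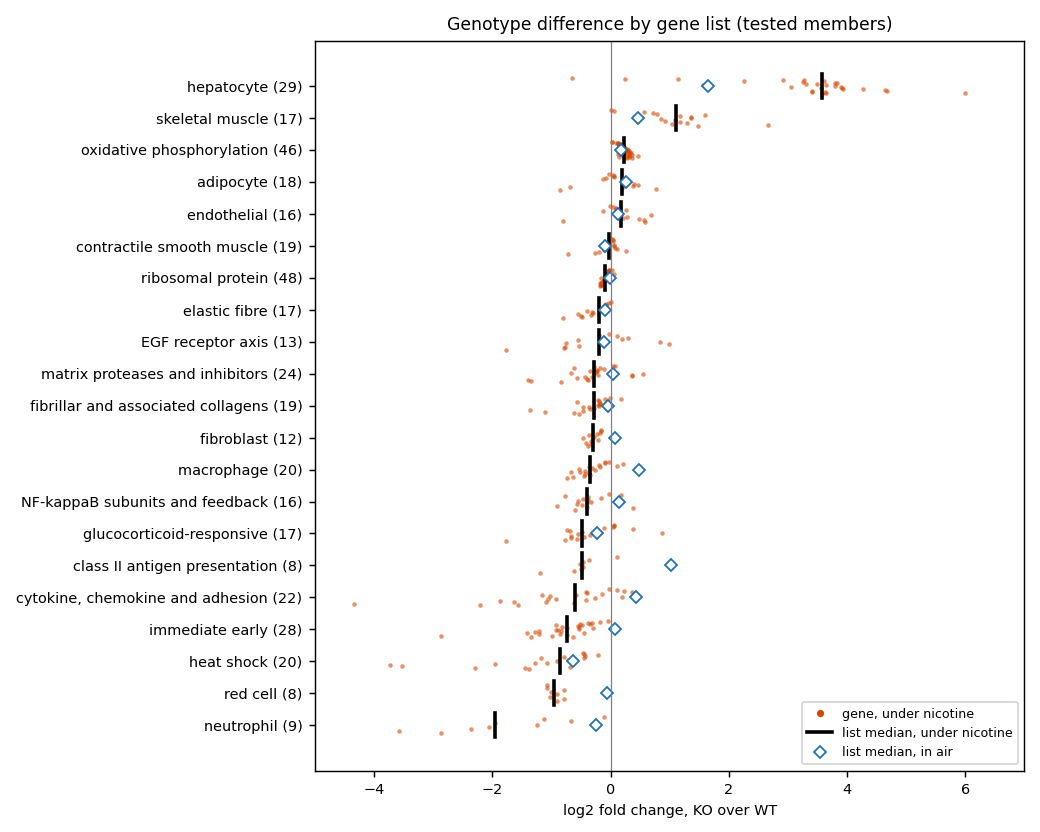
Log2 fold change of KO over WT for each tested member of 21 gene lists under nicotine (orange points), with the list median (black bar) and the median of the same list in air (open diamond). The number of tested members is in brackets, and medians run from -1.96 for neutrophil to 3.58 for hepatocyte genes.

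Several other lists lay closer to 0. In all, 57 lists were examined, and some that are not described here were further from 0. Examples are the mesothelial (median 0.766), brown adipocyte (0.435) and fatty acid oxidation (0.348) lists. Contractile smooth muscle genes had 8 members above and 11 below 0 with a median of -0.04, and Myocd, the coactivator that drives them, was the sole member at unadjusted p under 0.05, at 371, 365 and 686 CPM in WT and 252, 236 and 374 CPM in KO (-0.72 ± 0.27, and -0.62 ± 0.27 in air). Ribosomal protein genes were shifted slightly, with 46 of 48 below 0, a median of -0.10 and 0 at unadjusted p under 0.05. Genes for oxidative phosphorylation were all on the other side, 46 of 46 above 0 with a median of 0.22, where 52.3% of all tested genes were above 0, but 0 reached an unadjusted p of 0.05. Adipocyte genes had a median of 0.19, and Ucp1, the uncoupling protein of brown fat, was at 423, 436 and 530 CPM in WT and 825, 1027 and 723 CPM in KO (0.89 ± 0.53, adjusted p = 0.744, edgeR). Without KO library 5 the medians were 0.43 for oxidative phosphorylation and 0.37 for adipocyte genes, and without KO library 4 they were -0.08 and -0.26.

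Endothelial genes lay on both sides of 0. Of 16, 13 were above 0 (52.3% of all tested genes), with a median of 0.17 that was 0.07 without WT library 12, 0.11 without KO library 3 and 0.32 without WT library 6. Sox18, a vascular transcription factor, was at 19.9, 16.3 and 18.1 CPM in WT and at 32.0, 28.5 and 21.2 CPM in KO (0.59 ± 0.16), and Nos3, the endothelial nitric oxide synthase, at 32.3, 23.7 and 31.0 against 58.0, 29.8 and 41.2 CPM (0.57 ± 0.22). Cldn5, a tight junction claudin, lay on the other side at 25, 19.3 and 12.7 against 8.06, 12.7 and 11.7 CPM (-0.81 ± 0.29).

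Genes higher in KO were less separated from the spread. The 10 with the lowest p, given that every KO library lay above every WT library (5.8% of all tested genes), had log2 fold changes between 0.48 and 1.17 and adjusted p between 0.176 and 0.348 in edgeR. Epm2aip1, a partner of the glycogen phosphatase laforin, was at 38.5, 34.5 and 33.6 CPM in WT and at 53.3, 53.4 and 55.9 CPM in KO (0.61 ± 0.12). Dbt, a subunit of the branched-chain keto acid dehydrogenase, was at 37.6, 43.9 and 38.1 against 59.3, 67.2 and 57.3 CPM (0.62 ± 0.13), and Mre11a, a nuclease of DNA break repair, at 10.7, 13.4 and 12.1 against 18.4, 20.4 and 18.9 CPM (0.67 ± 0.15). The other 7 were Zfp810 (0.86 ± 0.19), Krba1 (0.60 ± 0.15), Hspa12b, a vascular HSP70 relative (0.84 ± 0.21), Trub1, a pseudouridine synthase (0.73 ± 0.18), Mterf2, a mitochondrial transcription factor (1.17 ± 0.30), Fam214a (0.48 ± 0.12) and Rin1, a RAS effector (0.92 ± 0.24).

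The largest positive fold changes belonged to liver genes. Of the 29 hepatocyte markers 28 were above 0 (52.3% of all tested genes), with a median of 3.58. At unadjusted p under 0.05, 24 were higher (4.29% of all tested genes). Every KO library lay above every WT library for 1 of the 29 alone, and for 5.8% of all tested genes. Cps1, the first enzyme of the urea cycle, was at 0.885, 1.43 and 3.10 CPM in WT and at 341, 12.8 and 2.10 CPM in KO (6.00 ± 1.85). Without KO library 3 the median of the list was 1.05. The mean log2 CPM of the list was 6.425, 3.315 and 1.407 in the KO libraries and ran from 0.754 to 2.58 in WT. In air 28 of the 29 were also above 0 (50.2% of all tested genes), with a median of 1.64. There 1 was higher at unadjusted p under 0.05 (2.24%). The air libraries ran from 1.91 to 3.87 in KO and from 0.631 to 2.33 in WT. For skeletal muscle genes, 17 of 17 were above 0 with a median of 1.10, and without KO library 3 it was -0.00. Neither list had a called gene.

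The genotype contrast in air shares no library with that under nicotine, so the difference between them could be tested gene by gene as the interaction. No gene was called in that test by edgeR (0% of those tested) and 9 were by DESeq2, and 647 (4.43%) had unadjusted p under 0.05. The lowest adjusted p, 0.230, belonged to Bhlhe40, which was lower in KO under nicotine (-0.71 ± 0.15) and higher in KO in air (0.64 ± 0.15), with air means of 78.7 CPM in WT and 122 CPM in KO. Under the same naming rule, the genes with the next lowest p were Sfrp4 (difference -1.61 ± 0.31), Rcan1 (-1.16 ± 0.24), Cd33, a myeloid lectin (-2.10 ± 0.44), Apold1, an endothelial early response gene (-2.72 ± 0.58), and Igfbp6 (-1.18 ± 0.26), each with an adjusted p of 0.777 in edgeR. Apold1 was at 20.1, 24.8 and 7.19 CPM in WT nicotine and 5.04, 4.96 and 4.05 CPM in KO nicotine, and its air means were 2.64 CPM in WT and 4.69 CPM in KO. In the edgeR fit, the lower level of these genes in KO under nicotine was not shown to differ from the genotype difference in air. The 9 genes called by DESeq2 were all on the lower side, and which genes they were is not given here.

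Over all 14621 tested genes the genotype log2 fold changes under nicotine and in air had a Pearson r of 0.30 and a Spearman rho of 0.14 across genes, which are not independent replicates. Of the 100 genes with the lowest p among those lower in KO under nicotine, 69 were also lower in air, with medians of -0.72 under nicotine and -0.12 in air. For the 100 lowest-p genes higher in KO, 63 were higher in air, with medians of 0.80 and 0.10.

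**Figure D5:**
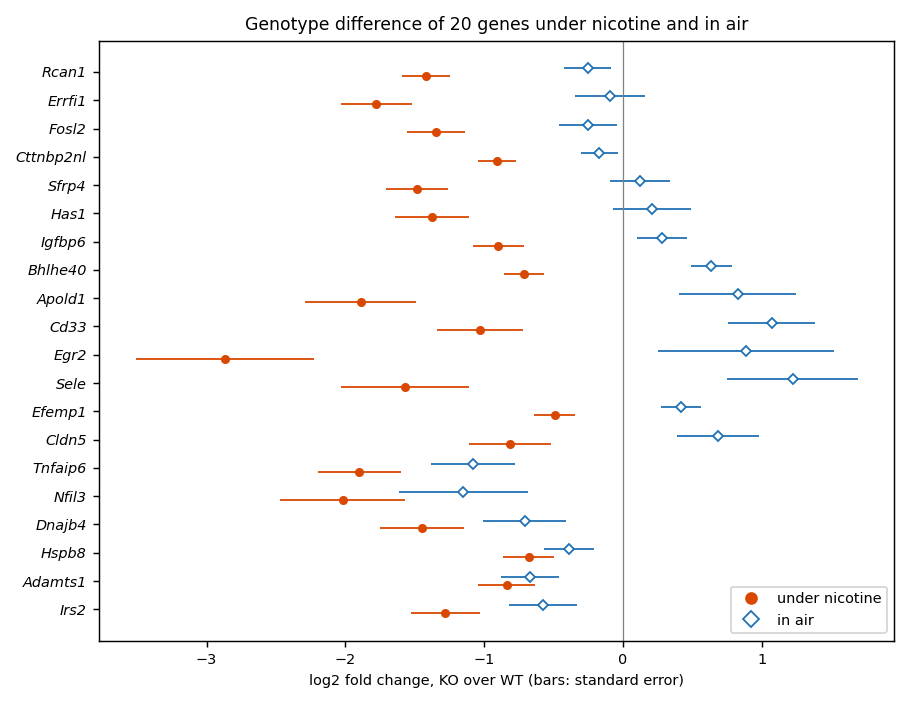
Log2 fold change of KO over WT for 20 genes under nicotine (filled) and in air (open), with bars for the SE. Rcan1, Errfi1, Fosl2 and Cttnbp2nl lie near 0 in air, Bhlhe40, Apold1, Cd33 and Sele cross to the positive side, and Tnfaip6, Nfil3 and Adamts1 are negative in both.

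None of the genes beside Chrna7 on the chromosome stood out. Of the 40 nearest genes in the order of the RefSeq table, 22 were tested, 13 were above and 9 below 0, and 0 had an unadjusted p under 0.05. The nearest tested ones on either side were Klf13 (0.10 ± 0.16), E030018B13Rik (-0.18 ± 0.38) and Mtmr10 (0.08 ± 0.13), and Ndn (0.41 ± 0.22), Snrpn (-0.23 ± 0.20) and Ube3a (-0.05 ± 0.11). Nnt, which is partly deleted in the C57BL/6J strain and can mark a mixed background, was at 28.2, 25.3 and 28.3 CPM in WT and 23.9, 19.7 and 27.1 CPM in KO (-0.21 ± 0.15).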

How the data were processed

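Reads had been counted per gene with HTSeq on build mm9 by the authors, per the submitters' processing notes, and the raw counts were used as deposited. For the aligner and annotation, the entry is: not given in the sources used here. Genes were filtered (filterByExpr), scaled by TMM and fitted in edgeR 4.0.16 (R 4.3.3, robust quasi-likelihood) with 4 group means over all 12 libraries, which gave 8 residual degrees of freedom. Contrasts were KO minus WT under nicotine, in air, and their difference. SE is the absolute log2 fold change over the root of the F statistic. The p-values were adjusted by Benjamini-Hochberg over 14621 genes. List levels are mean log2 CPM with a prior count of 2. DESeq2 1.42.0, limma 3.58.1, other filters, covariates, thinning and left-out libraries were alternatives. The script was tested on simulated data. Libraries differed well beyond sampling noise, so none was counted as a repeat of another. Named genes were the called genes, then those of lowest p without overlap, with a mean of at least 5 CPM in the higher group (10 per direction), up to 4 members per list at unadjusted p under 0.05, the 6 of lowest p in the difference, the 3 nearest Chrna7 on each side, and a fixed set of receptor and tissue genes, except 1 gene that is not reported here. Members and lists were chosen with earlier results of these data known. The authors' deposited comparison tables were not used.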

Additional observations from a re-analysis of the deposited data

How the results depend on the processing

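The number of genes called between KO and WT under nicotine (1) depended on the tool and the libraries. It was 6 with DESeq2-type size factors, 7 with no filter on low counts, 5 with limma voom, 6 with counts thinned to the smallest library and 9 with the adipocyte level as a covariate. DESeq2 called 74 on all libraries (13 higher and 61 lower in KO) and 61 on the 6 libraries compared (5 higher and 56 lower). The count was 0 with the hepatocyte level as a covariate. Leaving out 1 library gave 0 to 4 calls, with 0 without KO nicotine library 4 or 5, 2 without KO nicotine library 3 and 4 without WT nicotine library 12. Alternatives chosen after seeing the data gave 4 calls with KO nicotine library 3 and WT nicotine library 6 both left out, and 0 with the immediate early or the heat shock level as a covariate, where Rcan1 had adjusted p of 0.227 (-1.34) and 0.558 (-0.91) in edgeR. Both covariates rest on genes of the same contrast. Rcan1 was negative under every alternative run, from -1.69 to -0.91, and its adjusted p ran from 2.17e-09 to 0.558.

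In air (0 calls) the count was 2 with only the libraries compared, 13 and 52 with DESeq2 on all and on the compared libraries, 3 with the skeletal muscle level as a covariate and 2 with the 2 libraries above left out. For the difference between exposures (0 calls) it was 1 with no filter, 9 with DESeq2 on all libraries, 1 with the 2 libraries left out, and 0 to 1 when 1 library was left out. The cause of these shifts was not tested.

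Changes of sign occurred mostly in genes and lists near 0, but also in Chrna1, Chrna2 and the skeletal muscle list, which were not. Acta2 became positive with only the libraries compared (0.0024), with thinned counts (0.0022), with the skeletal muscle (0.10), hepatocyte (0.20) and immediate early (0.24) levels as covariates and with the 2 libraries left out (0.21), and ran from -0.32 to 0.15 over single libraries left out. Chrna7 was -0.032 and -0.12 with the skeletal muscle and hepatocyte covariates and -0.54 with the 2 libraries left out (-0.28 to 0.39 over single libraries). Myh11 was 0.11 with the hepatocyte and 0.045 with the immediate early covariate (-0.35 to 0.043). Adipoq was 0.072 with the 2 libraries left out and 0.44 with the heat shock covariate (-0.66 to 0.20), Chrna1 was 0.019 with the 2 libraries left out, and Chrna2 was -0.044 with the immediate early covariate (-0.27 to 1.71). With the heat shock covariate Klf13 was -0.077, Ube3a 0.15 and E030018B13Rik 0.30 (-0.40 to 0.20). Mtmr10 ran from -0.030 to 0.15 over single libraries left out. The list medians that crossed 0 were those of oxidative phosphorylation (-0.078 to 0.43), contractile smooth muscle (-0.26 to 0.054, and 0.040 with the 2 libraries left out), skeletal muscle (-0.0044 to 1.57, and -0.34 with the 2 libraries left out) and adipocyte genes (-0.26 to 0.37). Over single libraries left out, medians stayed negative for immediate early (-0.98 to -0.53), heat shock (-1.11 to -0.55), cytokine (-1.12 to -0.51) and collagen genes (-0.42 to -0.19).

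No paired analysis was possible because the labels give no pairing between the groups compared. With 3 libraries a group, an exact permutation test of 1 gene could not go below 0.1, and libraries of 10240031 to 12628323 counts left genes such as Chrna7 and Il6 with few reads.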
